A study of Homo sapiens with 4 samples.

Results

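The enzymes described here build the sugar chains of glycoproteins and glycolipids. They were chosen by gene symbol: protein-coding genes of the families GALNT, GCNT, MGAT, B3GNT, B3GALT, B4GALT, B4GALNT, FUT, ST3GAL, ST6GAL, ST6GALNAC, ST8SIA and HS3ST, plus A4GALT and GBGT1. The rule gave 97 of the 19951 protein-coding genes of GENCODE release 29, spread over 21 chromosomes. The 7 HS3ST genes encode sulfotransferases rather than glycosyltransferases, so the set is slightly wider than its name, and they were kept because the rule includes them.

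HepG2 and Huh7 are established lines of human liver cancer cells. Each line was sequenced without treatment (groups A and C) and after sonodynamic therapy (SDT, groups B and D), with 1 library in each of the 4 groups. In SDT, low-frequency ultrasound activates a sensitizer held by the cells. The treated cells of both lines received targeted nanobubbles that carried the sensitizer hematoporphyrin monomethyl ether (HMME) together with lonidamine (LND), so the effects of ultrasound, HMME, LND and the bubbles cannot be told apart.

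The values used are gene lists. For B vs. A (HepG2) and D vs. C (Huh7), the authors deposited the differentially expressed mRNAs that fall under each Gene Ontology (GO) term and each KEGG pathway. A gene is called listed in a cell line when its identifier stands under any GO term of that comparison. Listing says that the authors' test passed an adjusted p of 0.05. With 1 library per group, that p cannot measure variation between cultures, so a listed gene is not a replicated change. Listing gives neither the direction nor the size of the change. A gene that is not listed may be unchanged, too weakly expressed to test or not annotated. Library depth is unknown from these tables, without replicates no test between groups was possible, and no p-value is given below. The tables hold no expression levels either, so the cell lines were not checked against liver markers.

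As background, most sugar chains are made in the Golgi by transferases that each add 1 kind of sugar to 1 kind of acceptor. The GALNT enzymes start mucin type O-glycans by placing N-acetylgalactosamine (GalNAc) on serine or threonine, and the GCNT enzymes branch the cores. The MGAT enzymes branch N-glycans, the B3GNT, B3GALT and B4GALT enzymes extend the chains, and fucosyltransferases and sialyltransferases cap them. Several cap structures, among them the H, Lewis and sialyl Lewis antigens, are widely studied on hepatocellular carcinoma cells and on serum glycoproteins made by the liver.

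HepG2 cells listed 31 of the 97 members (32.0%), and Huh7 cells 27 (27.8%). The same shares over all protein-coding genes were 23.9% for HepG2 and 21.9% for Huh7. Over the annotated background of the GO lists they were 21.6% for HepG2 and 19.7% for Huh7. In all, 46 members (47.4%) were listed in at least 1 line, beside 34.3% of protein-coding genes. Both lines listed 12 members (12.4%), beside 11.4% of protein-coding genes, so the share common to both lines lay near the background. The 12 shared members made up 38.7% of the HepG2 members and 44.4% of the Huh7 members. For all protein-coding genes, the shared part was 47.7% of the HepG2 list and 52.2% of the Huh7 list.

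The 12 members listed in both lines were GALNT1, GALNT4, GALNT6, GALNT9, GALNT11, GALNT17, GCNT4, FUT1, FUT5, FUT6, ST3GAL6 and ST8SIA5. The 19 listed in HepG2 cells alone were GALNT2, GALNT5, GALNT7, GALNT12, MGAT1, MGAT4C, MGAT5B, B3GNT5, B3GNT9, B4GALNT2, B4GALNT4, FUT3, FUT10, ST6GALNAC1, ST6GALNAC3, ST6GALNAC4, ST8SIA4, ST8SIA6 and HS3ST3B1. The 15 listed in Huh7 cells alone were GALNT16, GCNT1, MGAT5, B3GALT2, B3GALT9, B4GALT6, FUT2, FUT9, ST6GAL1, ST6GALNAC2, ST6GALNAC5, ST8SIA3, HS3ST1, HS3ST5 and GBGT1. The other 51 were listed in neither line. A listed member stood under 34 to 153 GO terms in HepG2 cells (median 79.0) and under 43 to 122 in Huh7 cells (median 81.0).

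**Figure D1:**
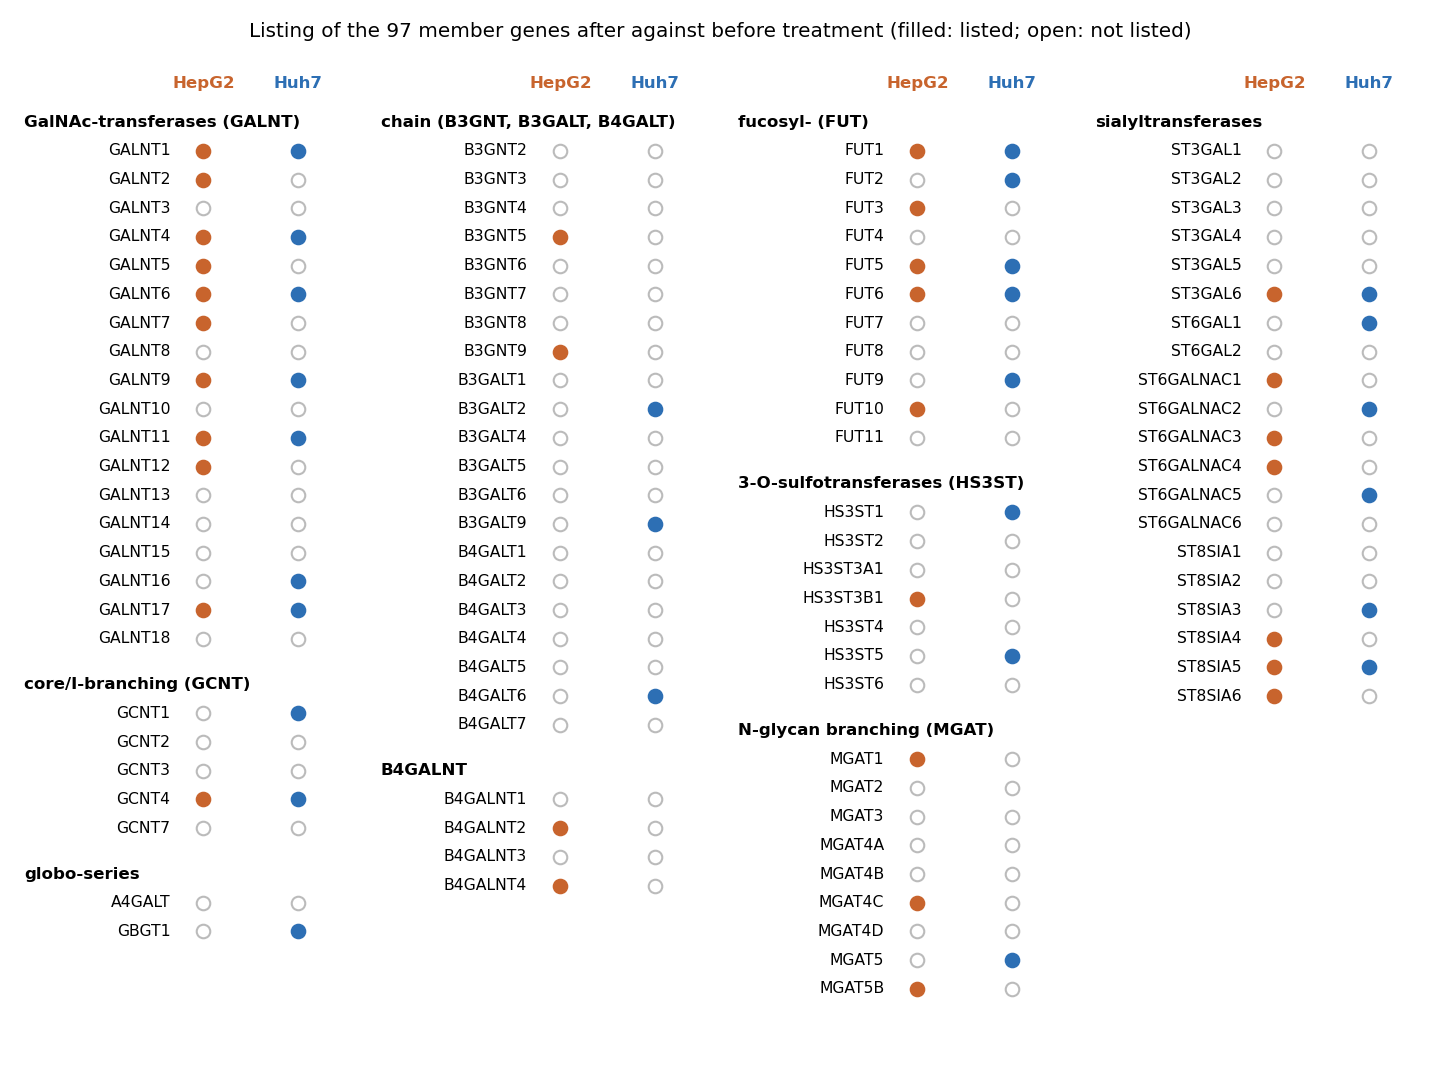
Listing of each of the 97 members, grouped by enzyme class, in HepG2 cells (left column of circles) and Huh7 cells (right column). A filled circle marks a gene that the authors called differentially expressed after treatment and an open circle one that is not listed. Filled pairs are most frequent among the GALNT genes, with 6, and there is none among the chain, MGAT, B4GALNT and HS3ST genes.

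The fucosyltransferases FUT3, FUT5 and FUT6 are shown by sequence first, because their listing differed although the genes are close copies. FUT3, the Lewis enzyme, adds fucose in alpha-1,3 or alpha-1,4 linkage, and FUT5 and FUT6 act mainly in alpha-1,3 linkage. All lie within a short stretch of the minus strand of chromosome 19 (GRCh38). FUT6 occupies chr19:5830610-5839731, FUT3 chr19:5842888-5851474 and FUT5 chr19:5865826-5870540, with gaps of 3.16 kb and 14.4 kb between the gene ends. FUT5 and FUT6 were listed in both lines, whereas FUT3 was listed in HepG2 cells alone. The coding sequences, taken from the GENCODE transcripts, were 90.7% identical between FUT3 and FUT5, 90.2% between FUT3 and FUT6 and 89.8% between FUT5 and FUT6. The following 75 coding bases are those in which the aligned genes differ most, with capitals at the 21 positions where they are not all the same. They start at coding base 167 of FUT3, 206 of FUT5 and 164 of FUT6.
FUT3: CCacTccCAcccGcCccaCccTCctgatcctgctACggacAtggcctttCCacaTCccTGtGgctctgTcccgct
FUT5: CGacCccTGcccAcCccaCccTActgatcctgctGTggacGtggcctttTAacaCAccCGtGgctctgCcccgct
FUT6: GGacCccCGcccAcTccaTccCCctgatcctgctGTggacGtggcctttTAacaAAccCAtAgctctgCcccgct

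Reads from this window could be told apart between the copies, whereas reads from the run of 229 coding bases below, which is the same in all 3 genes, could not. It begins at coding base 733 of FUT3, 772 of FUT5 and 730 of FUT6.
shared run: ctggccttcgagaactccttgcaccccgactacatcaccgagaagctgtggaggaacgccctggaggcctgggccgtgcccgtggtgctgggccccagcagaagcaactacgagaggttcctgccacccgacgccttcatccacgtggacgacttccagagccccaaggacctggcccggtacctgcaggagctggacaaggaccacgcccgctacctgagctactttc

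Over whole transcripts, 90.2% of the 75-base stretches of FUT3 and 93.8% of those of FUT6 occur in no other gene. For FUT5 the share was 18.1%, since 81.9% of its stretches also occur in AC024592.3, an overlapping gene on the same strand that was listed in neither line, and 15.0% in FUT3. The listing of FUT5 is therefore uncertain. The part that shared reads had in any of the 3 calls was not tested.

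FUT1 and FUT2 form a second pair on chromosome 19, with 42.1 kb between them. Both make the H antigen by adding alpha-1,2-linked fucose, FUT1 in red cell precursors and other tissues and FUT2, the secretor enzyme, mainly in epithelia. FUT1 (chr19:48748011-48755390, minus strand) was listed in both lines and FUT2 (chr19:48695971-48705950, plus strand) in Huh7 cells alone. Their coding sequences were 68.3% identical, and the longest run they share had 21 bases. In the 75 bases shown, which start at coding base 264 of FUT1 and 213 of FUT2, the genes differ at the 22 positions in capitals.
FUT1: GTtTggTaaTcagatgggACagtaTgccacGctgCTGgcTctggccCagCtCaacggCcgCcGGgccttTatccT
FUT2: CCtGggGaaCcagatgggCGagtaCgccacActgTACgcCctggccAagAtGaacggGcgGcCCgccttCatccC

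No stretch of 75 bases is shared between FUT1 and FUT2, unlike the Lewis-type copies, and 97.2% of the stretches of FUT2 were unique, with the rest in the neighbouring pseudogene SEC1P. Among the other fucosyltransferases, FUT10 was listed in HepG2 cells alone. FUT9, which makes the Lewis x structure, was listed in Huh7 cells alone. FUT4 and FUT7, which complete Lewis x and sialyl Lewis x on blood cells, were listed in neither line, and neither were FUT11 and FUT8, the enzyme of the core fucose of N-glycans. In total 5 of the 11 FUT genes (45.5%) were listed in each line, beside 23.9% of all protein-coding genes in HepG2 and 21.9% in Huh7 cells. Both lines listed 3 (27.3%), beside 11.4% of all protein-coding genes, and these include FUT5, whose listing is uncertain. At least 1 line listed 7 (63.6%). The shared genes were 60.0% of those listed in each line, beside 47.7% and 52.2% for all protein-coding genes, and 34.3% of all protein-coding genes were listed in at least 1 line.

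The GALNT genes had the highest share of the 9 classes in HepG2 cells, 10 of 18 (55.6%). The Huh7 share was 7 of 18 (38.9%), below those of the FUT, GCNT and globo-series genes, the last of which are only 2. At least 1 line listed 11 of the 18 (61.1%). The lines shared 6 of the 18 (33.3%), which is 60.0% of the HepG2 genes and 85.7% of the Huh7 genes. Of all protein-coding genes, 23.9% were listed in HepG2, 21.9% in Huh7, 34.3% in at least 1 line and 11.4% in both. The shared part of all protein-coding genes was 47.7% of the HepG2 list and 52.2% of the Huh7 list. GALNT1, one of the broadly expressed enzymes that start O-glycosylation, was listed in both lines. GALNT2, another broadly expressed enzyme whose targets include regulators of blood lipids, was listed in HepG2 cells alone. Also shared were GALNT4, GALNT6, GALNT9, GALNT11 and GALNT17, of which GALNT11 modifies Notch1 and LDL receptor repeats. GALNT5, GALNT7, which acts on peptides that already carry GalNAc, and GALNT12 were listed by HepG2 cells alone, and GALNT16 by Huh7 cells alone.

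Listed in neither line were GALNT3, which protects the hormone FGF23 from cleavage, GALNT8, GALNT10, GALNT13, GALNT14, GALNT15 and GALNT18. GALNT1 and its closest relative GALNT13 were 73.8% identical over their coding sequences, and GALNT9 and GALNT17, both listed in both lines, were 67.4% identical. Without the GALNT genes, HepG2 cells listed 21 of the other 79 members (26.6%), Huh7 cells listed 20 (25.3%), and both lines shared 6 (7.59%). These shares were closer to the backgrounds of 23.9% and 21.9%, and the share in both was below 11.4%. The GALNT shares were above those of the whole set, so leaving these genes out had to lower the remainder. The lower shares are thus not a separate result.

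GALNT4 needs a caution. It lies at chr12:89519408-89524806 (minus strand) inside the read-through gene POC1B-GALNT4, and 93.1% of its 75-base stretches occur there too, which left 6.85% unique. The read-through gene was itself listed in Huh7 cells and not in HepG2 cells. Reads over GALNT4 could thus have been assigned to either gene. GALNT6 overlaps SLC4A8 on the other strand, and both were listed in both lines. The libraries were made with a strand-marking kit, but whether strand was used in counting is not given in the sources used here.

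**Figure D2:**
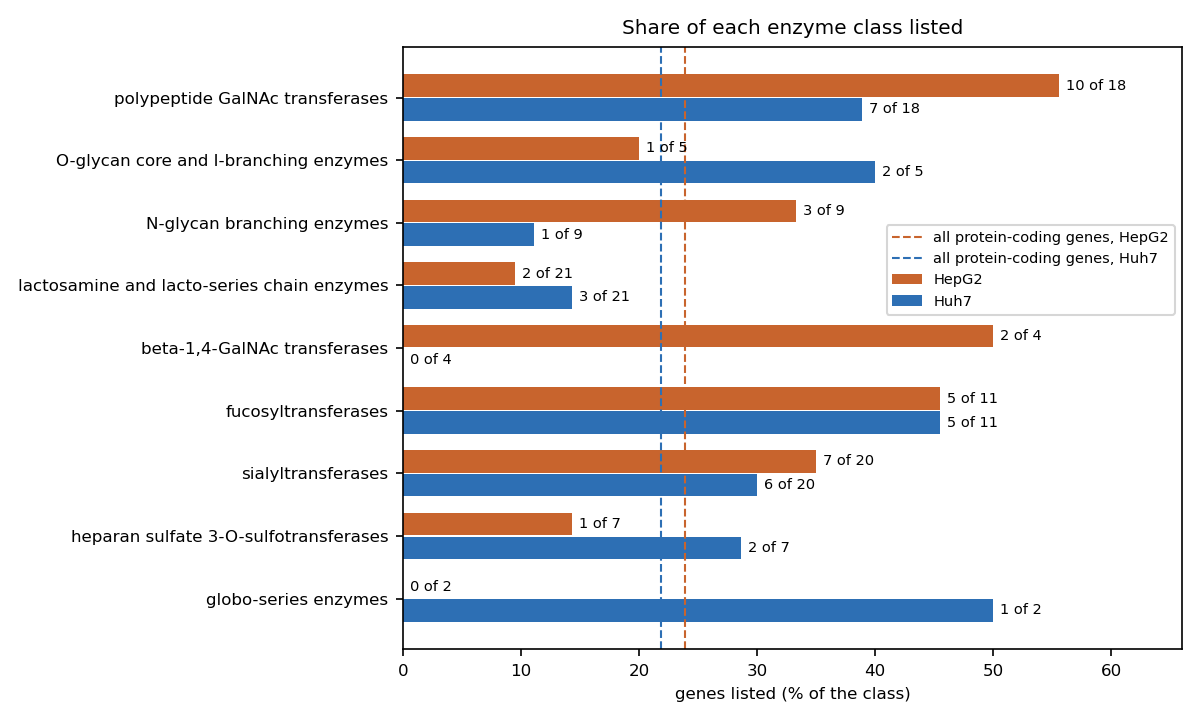
Percent of each enzyme class that was listed in HepG2 and Huh7 cells, with the number of listed genes of the class at each bar. Dashed lines mark the shares of all protein-coding genes, 23.9% in HepG2 and 21.9% in Huh7 cells. The GALNT genes, fucosyltransferases and sialyltransferases exceed both lines, whereas the 21 chain enzymes fall below them at 9.52% and 14.3%.

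Of the O-glycan branching enzymes, GCNT4, which makes core 2 branches, was listed in both lines. GCNT1, the main core 2 enzyme, was listed in Huh7 cells alone, where the gene PRUNE2 on the opposite strand was listed as well. GCNT2, the I-branching enzyme of the blood group I antigen, GCNT3 and GCNT7 were listed in neither line. HepG2 cells thus listed 1 of the 5 GCNT genes, and Huh7 cells 2, beside backgrounds of 23.9% and 21.9%, which amount to about 1 gene in 5.

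Of the 9 N-glycan branching enzymes, HepG2 cells listed 3 (33.3%, background 23.9%). They were MGAT1, which opens the way to hybrid and complex N-glycans, MGAT4C and MGAT5B, the brain-type relative of MGAT5. Huh7 cells listed 1 of the 9 (11.1%, background 21.9%), MGAT5, the enzyme of the beta-1,6 branch long studied in tumour cells. MGAT2, which starts the second antenna, MGAT3, which adds the bisecting residue, and MGAT4A, MGAT4B and MGAT4D were listed in neither line. The GO function of the beta-1,6 branch enzyme has 2 genes, MGAT5 and MGAT5B, and HepG2 cells listed MGAT5B and Huh7 cells MGAT5. No MGAT gene was listed in both lines, which for 9 genes is little different from the 11.4% of all protein-coding genes.

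Of the 9 classes, the enzymes that extend chains had the lowest share listed in at least 1 line, 5 of 21 (23.8%), beside the background of 34.3%. HepG2 cells listed 2 of the 21 B3GNT, B3GALT and B4GALT genes (9.52%) and Huh7 cells 3 (14.3%), with none in common, beside backgrounds of 23.9%, 21.9% and 11.4% in both. B3GNT5, which starts the lacto and neolacto series of glycolipids, and B3GNT9 were listed in HepG2 cells. B3GALT2, B3GALT9 and B4GALT6, a lactosylceramide synthase, were listed in Huh7 cells. B3GALT2 lies opposite CDC73, which was listed in HepG2 cells and not in Huh7 cells, so the pair was not listed together in either line.

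The other 16 chain enzymes were listed in neither line. Among them were B4GALT1, the main galactosyltransferase of N-glycans, B4GALT2, B4GALT3, B4GALT4 and B4GALT5, the other lactosylceramide synthase. B4GALT5 and B4GALT6 were 70.4% identical over their coding sequences. B4GALT7 and B3GALT6, which build the linker of glycosaminoglycans, were not listed, nor were B3GNT2, the main enzyme of poly-N-acetyllactosamine, B3GNT3, B3GNT4, B3GNT6, B3GNT7 and B3GNT8. B3GALT1, B3GALT4, which makes the ganglioside GM1, and B3GALT5, which makes type 1 chains, completed the group. For the GO term galactosyltransferase activity, each line listed 4 of 41 genes (9.76%). Over the annotated background of the GO lists, the shares were 21.6% in HepG2 and 19.7% in Huh7 cells. Chain enzymes named above made up 2 of the 4 in HepG2 and 3 of the 4 in Huh7 cells, so this count partly repeats theirs.

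Of the 4 B4GALNT genes, 2 were listed in HepG2 cells and none in Huh7 cells. They were B4GALNT2, which makes the Sda antigen, and B4GALNT4, which makes the LacdiNAc group on glycoproteins. B4GALNT3, the other LacdiNAc enzyme, and B4GALNT1, which makes the gangliosides GM2 and GD2, were listed in neither line. Of all protein-coding genes, 11.4% were listed in both lines. The shares in single lines were 23.9% for HepG2 and 21.9% for Huh7 cells. With 4 genes, no difference between the lines can be read from these counts.

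Of the 20 sialyltransferases, HepG2 cells listed 7 (35.0%, background 23.9%) and Huh7 cells 6 (background 21.9%). At least 1 line listed 11 (55.0%, background 34.3%), and both lines listed 2 of 20, near the background of 11.4%. The shared genes were ST3GAL6, which acts on lactosamine ends and contributes to sialyl Lewis x, and ST8SIA5, a ganglioside sialyltransferase. The other members of ST3GAL, ST3GAL1 to ST3GAL5, were listed in neither line, and these include ST3GAL5, which makes the ganglioside GM3. Of the ST6GAL pair, ST6GAL1, the alpha-2,6 sialyltransferase of N-glycans that is abundant in liver, was listed in Huh7 cells alone, and ST6GAL2 in neither line.

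Among the 6 ST6GALNAC genes, 5 (83.3%) were listed in at least 1 line, beside 34.3% of all protein-coding genes. None was listed in both, which for 6 genes is little different from the background of 11.4%. ST6GALNAC1, which makes the sialyl-Tn antigen, ST6GALNAC3 and ST6GALNAC4 were listed in HepG2 cells. ST6GALNAC2 and ST6GALNAC5 were listed in Huh7 cells, and ST6GALNAC6 in neither line. For ST6GALNAC2, 69.6% of the 75-base stretches were unique, and for ST6GALNAC6 55.2%, the rest being shared with overlapping gene models on the same strand. Among the ST8SIA genes, HepG2 cells listed ST8SIA4, a polysialic acid synthase, and ST8SIA6, and Huh7 cells listed ST8SIA3. ST8SIA1, which makes GD3, and ST8SIA2, the other polysialic acid synthase, were listed in neither line.

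Genes of 1 family within 500 kb of each other formed 7 pairs among 11 genes, so that the pairs are not independent. The listing differed in 6 pairs and was the same in 1, FUT5 and FUT6, 26.1 kb apart. Of all pairs of protein-coding genes within that distance, 50.7% differed in listing, and with so few pairs nothing particular to these families can be read from the count. ST6GALNAC3 (HepG2) and ST6GALNAC5 (Huh7) lie 233 kb apart on chromosome 1, and ST6GALNAC2 (Huh7) and ST6GALNAC1 (HepG2) 37.8 kb apart on chromosome 17. ST6GALNAC4 (HepG2) and ST6GALNAC6 (neither line) lie 2.48 kb apart on chromosome 9. The remaining pairs are the FUT genes described above. Of the 3 pairs from different families, ST6GALNAC1 and MGAT5B were both listed in HepG2 cells alone, ST3GAL3 and B4GALT2 in neither line, and ST6GALNAC2 and MGAT5B in different lines.

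The HS3ST enzymes add a rare sulfate group to heparan sulfate. HS3ST1, which makes the antithrombin binding site, and HS3ST5 were listed in Huh7 cells (2 of 7, 28.6%, background 21.9%). HS3ST3B1 was listed in HepG2 cells (1 of 7, 14.3%, background 23.9%). None was listed in both, which for 7 genes is little different from the background of 11.4%. HS3ST2, HS3ST3A1, HS3ST4 and HS3ST6 were listed in neither line. HS3ST3A1 and HS3ST3B1 were 81.2% identical and share a coding run of 537 bases, and 81.4% and 91.1% of their stretches were unique, so the listing of HS3ST3B1 alone carries some uncertainty. Of the globo-series enzymes, GBGT1, the Forssman synthase homologue, was listed in Huh7 cells, and A4GALT, which makes Gb3, in neither line.

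**Figure D3:**
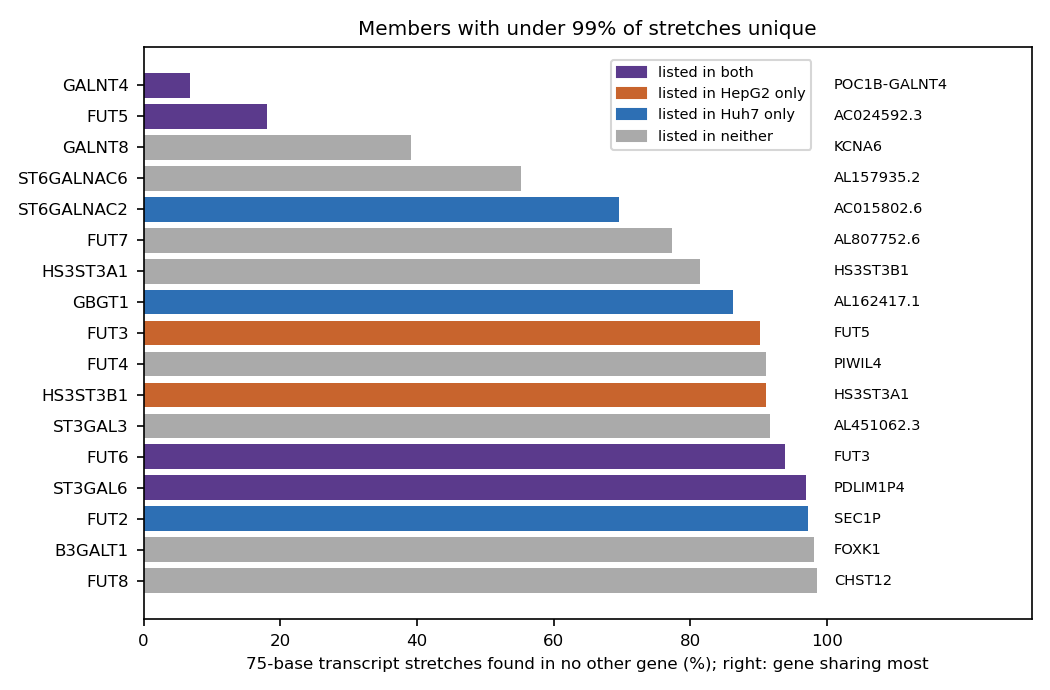
Percent of 75-base transcript stretches that occur in no other gene, for the members under 99%, coloured by listing, with the gene that shares most stretches named at the right. GALNT4 (6.85%) and FUT5 (18.1%), both listed in both lines, are the lowest.

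Across all members, 70 of 97 had no stretch in common with another gene, and 8 had under 90% unique stretches. The 8 were GALNT4, FUT5, GALNT8 (39.1%), ST6GALNAC6, ST6GALNAC2, FUT7 (77.3%), HS3ST3A1 and GBGT1 (86.3%). Of 382 pairs within families, 4 were over 80% identical in coding sequence. These were the pairs among FUT3, FUT5 and FUT6 and the pair of HS3ST3A1 with HS3ST3B1. The gene spans of 28 members overlap another protein-coding gene, and 12 of these 28 were listed in at least 1 line. The share was 47.4% for all members and 34.3% for all protein-coding genes.

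Longer transcripts collect more reads and are called more easily, so length was compared. The longest transcript of a member had a median of 3901 bases, against 3157 bases for all protein-coding genes. The median was 4184.5 bases for members listed in at least 1 line and 3783 bases for members listed in neither. The same comparison over all protein-coding genes gave 3301.5 and 3079 bases. Listed genes were therefore somewhat longer both among the members and in general, and the ranges overlapped widely, from 1661 to 25116 bases for listed members and from 1273 to 13170 bases for the others. The part of length in the listing was not tested.

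**Figure D4:**
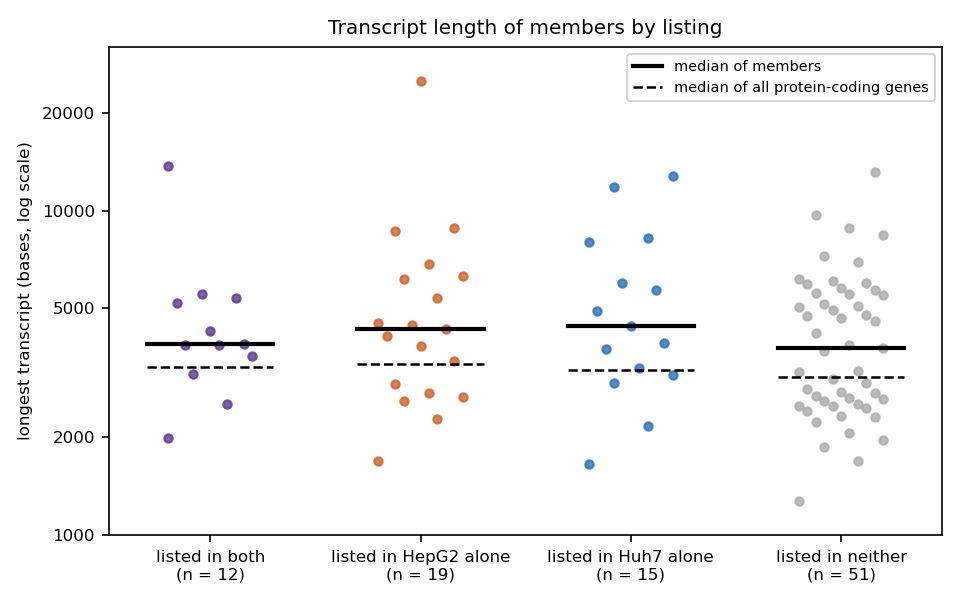
Longest transcript (bases, log scale) of each member by listing, each point 1 gene, with the median of the members (solid bar) and of all protein-coding genes with that listing (dashed bar). Members listed in both lines, in HepG2 alone, in Huh7 alone and in neither had medians of 3873.5, 4307, 4427 and 3783 bases.

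The pathway tables place these genes among their partners. Over the annotated background of the GO lists, 21.6% of genes were listed in HepG2 and 19.7% in Huh7 cells. Of all protein-coding genes, 11.4% were listed in both lines. In the KEGG pathway of mucin type O-glycan biosynthesis, HepG2 cells listed 13 of 31 genes (41.9%) and Huh7 cells 11 of 31 (35.5%), with 7 in both. Members supplied 12 and 9 of these, and the rest were GALNTL6 in HepG2 cells and GALNTL5 and POC1B-GALNT4 in Huh7 cells. The Huh7 count thus holds both GALNT4 and the read-through gene in which 93.1% of its 75-base stretches also occur. The same reads may stand behind both. In the lacto and neolacto series of glycosphingolipids, the counts were 7 and 8 of 26 (26.9% and 30.8%), with 5 in both, and apart from B4GAT1 all were members. The globo series differed more, with 1 of 14 (7.14%) in HepG2 cells, FUT1, and 5 of 14 (35.7%) in Huh7 cells, which were FUT1, FUT2, FUT9, GBGT1 and the galactosidase GLA. With so few genes and 1 library per group, this difference was not tested.

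Of the ganglio series, HepG2 cells listed 3 of 15 genes, ST6GALNAC3, ST6GALNAC4 and ST8SIA5, and Huh7 cells 2 of 15, ST6GALNAC5 and ST8SIA5. N-glycan biosynthesis had 8 of 49 (16.3%) and 11 of 49 (22.4%), near or below the background. Heparan sulfate biosynthesis had 5 of 24 (20.8%) and 8 of 24 (33.3%), and other O-glycan biosynthesis 9 and 6 of 31.

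**Figure D5:**
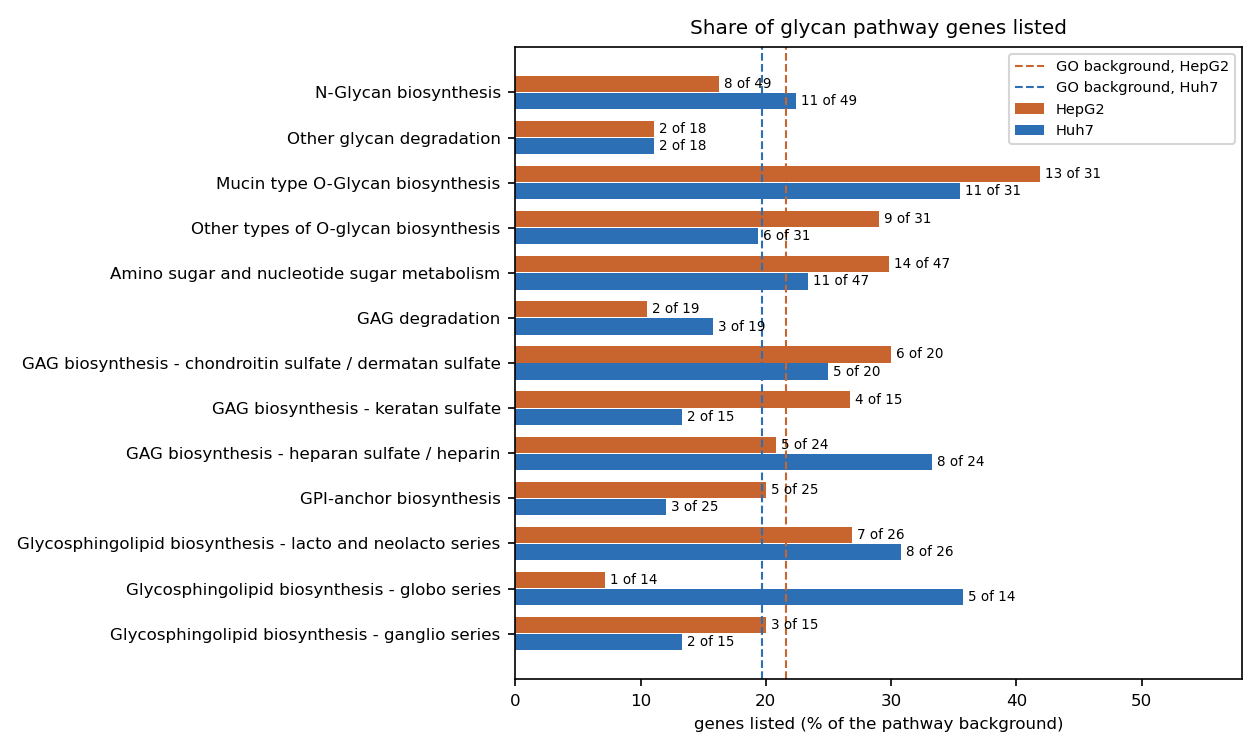
Percent of the background genes of each KEGG glycan pathway that were listed in HepG2 and Huh7 cells, with counts at the bars and dashed lines at the shares of the annotated GO background (21.6% and 19.7%). Mucin type O-glycan biosynthesis has the highest bar in HepG2 cells (41.9%) and is second to the globo series in Huh7 cells (35.5% and 35.7%), and the globo series has the widest gap between the lines.

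Among GO terms, polypeptide N-acetylgalactosaminyltransferase activity, a term chosen after the values were seen, had 11 of 19 genes (57.9%) listed by HepG2 cells and 7 of 19 (36.8%) by Huh7 cells. Protein O-linked glycosylation had 39 of 105 (37.1%) and 26 of 105 (24.8%), and members made up 13 and 10 of these. Protein N-linked glycosylation had 16 of 72 (22.2%) and 19 of 72 (26.4%), with 4 members in each. Fucosyltransferase activity had 7 of 13 (53.8%) and 6 of 13 (46.2%), and sialyltransferase activity 7 of 21 (33.3%) and 6 of 21 (28.6%). Over the annotated background of the GO lists, 21.6% of genes were listed in HepG2 and 19.7% in Huh7 cells. Protein N-linked glycosylation in HepG2 cells thus lay near the background. Terms share genes, so the term counts overlap one another and, as far as members make them up, repeat the member listing. In the O-linked and N-linked terms, most listed genes were not members. The counts are not separate evidence on the members.

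Genes that supply or act beside the members were read from 7 lists of 129 genes in all. In HepG2 cells 26 (20.2%) and in Huh7 cells 29 (22.5%) were listed, near the backgrounds of 23.9% and 21.9%. Both lines listed 18 (14.0%), beside the background of 11.4%, and at least 1 line listed 37 (28.7%), beside the background of 34.3%. Of 29 genes for the lipid-linked oligosaccharide and its transfer to protein, 5 (17.2%) were listed in HepG2 and 6 (20.7%) in Huh7 cells. ALG2, ALG6, ALG10B and ALG11, which add mannose or glucose to the precursor, were listed in both, OST4, a subunit of the oligosaccharyltransferase, in HepG2 cells alone, and ALG8 and ALG10 in Huh7 cells alone. Of 11 N-glycan trimming genes, the mannosidase MAN1C1 was listed in both lines and MAN1A1 in Huh7 cells alone.

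Among 22 genes for nucleotide sugar synthesis, 5 (22.7%, background 23.9%) were listed in HepG2 and 3 (13.6%, background 21.9%) in Huh7 cells. GFPT1 and GFPT2, the entry enzymes of the hexosamine pathway, and UAP1, which makes UDP-N-acetylglucosamine, were listed in both, and those listed in HepG2 cells alone included PGM3, an enzyme of the same route. Among 14 Golgi and related sugar carriers, SLC35A2, the UDP-galactose carrier, was listed in both lines, SLC35B4, SLC35C2 and SLC35D2 in HepG2 cells and SLC35D1 in Huh7 cells.

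The 20 core and other glycosyltransferases had 5 listed in each line (25.0%), near the backgrounds of 23.9% in HepG2 and 21.9% in Huh7 cells. OGT, the enzyme of intracellular O-GlcNAc, POFUT2 and B4GAT1 were listed in both, POFUT1 and GALNTL6 in HepG2 cells, and UGCG, which makes glucosylceramide, and GALNTL5 in Huh7 cells. The heparan sulfate chain had the highest share of the 7 lists in Huh7 cells, 8 of 19 genes (42.1%), against 5 of 19 (26.3%) in HepG2 cells. XYLT1, which starts the linker, NDST4, HS6ST2 and the sulfatases SULF1 and SULF2 were listed in both lines, and EXTL3, NDST3 and HS6ST3 in Huh7 cells alone. Of 14 sialidases and glycosidases, NEU1, the lysosomal sialidase, was listed in both lines and NEU4 and GLA in Huh7 cells.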

How the data were processed

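Total RNA was depleted of ribosomal RNA and sequenced from 1 library in each of 4 groups. Per the submitters' processing notes, Bowtie2 2.2.8, HISAT2, StringTie 1.3.1 and Cuffdiff 2.1.1 were used, and the study's text also names edgeR for the differential test. The genome build is not given in the sources used here. The authors deposited 4 tables of GO terms (by GOseq) and KEGG pathways (by KOBAS), in which counts are numbers of listed and background genes, not reads. Their p-value columns were not used. Depth is unknown from these tables, and no read-based interval was computed.

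Gene lists were rebuilt as the union of identifiers over all GO terms, giving 4783 genes for HepG2 and 4369 for Huh7 cells of 22148 annotated genes. Gene type, coordinates (GRCh38), lengths and sequences came from GENCODE release 29, matched by identifier, and symbols from a gene name table, in Python 3.11.15 with Biopython 1.88 and matplotlib 3.10.9. Protein-coding genes with no GO annotation remain in the denominator of 19951. Identity is the share of matching bases in a global alignment of 1 coding sequence per gene. A stretch is unique when no transcript of another gene holds it. All members are named by their listing. The parsing was tested on simulated tables. The members and lists were chosen with earlier results of these data known. Promoter windows were found for 72 of 97 members (74.2%), under the 80% needed, so none were analysed.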

Additional observations from a re-analysis of the deposited data

How the results depend on the processing

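The 4 counts of listed members were recomputed under 7 alternatives each: a stricter and a wider symbol pattern, KEGG rows added to GO rows, biological process terms alone, FUT3, FUT5 and FUT6 left out, older symbols added, and, chosen after seeing the data, members with at least 90% unique stretches. All 7 stayed within 1.5 times the reported count for each result. The alternatives reuse the same lists and nearly the same genes, so little change was possible. The check therefore shows only that the counts hardly depend on the symbol rule, and says nothing about the listing itself. Listed members ranged from 28 to 34 in HepG2 cells (29.8% to 32.7%), from 23 to 29 in Huh7 cells (25.8% to 28.4%), from 10 to 13 in both (10.6% to 12.6%) and from 42 to 50 in at least 1 line (45.7% to 48.1%), of 89 to 104 members. The symbol table held no older symbols, so GENCODE names were used in their place and added no gene. No paired analysis was possible because each group has 1 library. For the same reason no replicate could be left out, and the listing rests on the authors' own threshold, which cannot be varied here.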
